A study of Mus musculus with 12 samples.

Results

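The 10 genes described here, Spp1, Tmem119, Tspan9, Dpt, Apoe, Rarres2, Fstl1, Hmcn2, Nppc and Clu, encode proteins that are secreted or that sit in the cell membrane. They were chosen from these data, because their level differed widely between freshly isolated muscle stem cells (MuSCs) and the myoblasts grown from them. Matched by gene name, all 10 were found among the 16503 genes of the table that compares MuSCs with myoblasts and among the 16169 genes of the table that compares genotypes. Since the choice used the culture comparison, the values of that comparison are a description without a test. The comparison of genotypes was made in other mice and is tested here, although its results were also known when the genes were chosen.

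MuSCs, the stem cells of skeletal muscle, were sorted by FACS from hindlimb muscle as ITGA7+ cells that lacked CD31, CD45, CD11b and SCA1, and RNA of 1000 cells per library was sequenced with SMART-seq, a method that copies whole transcripts into cDNA and amplifies them. For the culture comparison, cells of 3 WT mice were collected either directly after the sort or after 3 days in growth medium with serum and bFGF, so that each mouse gave 1 MuSC library and 1 myoblast library, numbered 04, 05 and 06. For the genotype comparison, MuSCs were collected directly after the sort from male mice between 5 and 6 weeks of age, 3 of them WT and 3 Nedd4L-cKO, numbered 01, 02 and 03 in each group. These are the numbers of the libraries, used here to name the mice, and are not the animal numbers of the labels. Nedd4L-cKO mice (Nedd4L fl/fl Pax7 cre/+, C57BL/6 background) lose exon 15 of the ubiquitin ligase gene Nedd4L in every cell that expresses Pax7, while the shortened gene is still transcribed. The sources used here do not give whether WT mice carried the floxed allele or Cre, nor the age of the WT mice of the culture comparison. Cultured myoblasts were sequenced from WT mice only.

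Expression is given in RPM, computed from counts that the authors had normalized between libraries, with 1 scaling factor for all 6 libraries of a table. The 6 libraries of the culture table summed to between 33189802 and 37595659 normalized counts and those of the genotype table to between 40323468 and 50687122, and the read depth behind them is unknown. The summed level of 12 MuSC markers, Pax7 and Calcr among them, was 6297 to 9105 RPM in fresh MuSCs and 895 to 968 RPM in myoblasts. Of these 12, 9 were called lower in myoblasts (limma adjusted p of at most 0.05) and 3 were not called. The 3 were Cdh15, Notch3 and the sort marker Itga7, which had means of 206.5 RPM in MuSCs and 304.5 RPM in myoblasts. Sdc4 and Chodl had the highest MuSC means, at 3306 and 1584 RPM. The summed level of 10 markers of committed or cycling myoblasts was 1591 to 1959 RPM in MuSCs and 7739 to 9732 RPM in myoblasts. Of these 10, the cell cycle genes Mki67, Top2a, Ccnb1 and Cdk1 were not called between the 2 groups (limma adjusted p above 0.05), and the others were called higher in myoblasts. The summed level of 8 myofibre markers was 357 to 538 RPM in MuSCs and 8992 to 20593 RPM in myoblasts. In the genotype table, Nedd4l itself was at 66.7 to 96.4 RPM in WT and at 22.5 to 36.3 RPM in Nedd4L-cKO libraries (log2 fold change -1.37, limma adjusted p = 0.0467), a call that 4 of 13 alternative fits kept.

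Quiescent MuSCs lie between the myofibre and its basement membrane and exchange signals with both, and they contribute secreted and surface proteins to this niche. The proteins described here belong to several classes: adhesive and signalling ligands (osteopontin, C-type natriuretic peptide, chemerin, follistatin-like 1), extracellular carriers of lipid and misfolded protein (apolipoprotein E, clusterin), matrix proteins (dermatopontin, hemicentin 2) and membrane proteins (TMEM119, TSPAN9). Several of them are also known from other cells, such as Spp1 and Apoe in macrophages, Tmem119 in microglia and osteoblasts, and Dpt in fibroblasts.

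The sequences next to the transcription start of 4 of these genes are shown, since the 4 stand for the different patterns: Spp1 had the widest rise in culture, Nppc and Dpt were at 0.356 RPM or less in every myoblast library, and Hmcn2 was lower both in culture and in Nedd4L-cKO cells. RefSeq start sites on GRCm38.p6 were available for 7 of the 10 genes, in 13 windows, and each sequence is the 250 bases before a start, read 5′ to 3′ on the strand of the gene. The windows lie at chr5:104434861-104435110 (Spp1, plus strand), chr1:86670574-86670823 (Nppc, minus strand), chr1:164796413-164796662 (Dpt, plus strand) and chr2:31314082-31314331 (Hmcn2, plus strand). Capitals mark E-boxes (CANNTG, the letters that basic helix-loop-helix factors such as MyoD read), AP-1 letters (TGANTCA) and TATA letters (TATAAA), each searched on both strands.
Spp1: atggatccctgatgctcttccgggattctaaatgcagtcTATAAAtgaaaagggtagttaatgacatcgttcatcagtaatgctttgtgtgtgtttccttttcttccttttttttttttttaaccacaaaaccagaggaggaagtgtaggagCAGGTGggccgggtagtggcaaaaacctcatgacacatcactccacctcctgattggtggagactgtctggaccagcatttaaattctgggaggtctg
Nppc: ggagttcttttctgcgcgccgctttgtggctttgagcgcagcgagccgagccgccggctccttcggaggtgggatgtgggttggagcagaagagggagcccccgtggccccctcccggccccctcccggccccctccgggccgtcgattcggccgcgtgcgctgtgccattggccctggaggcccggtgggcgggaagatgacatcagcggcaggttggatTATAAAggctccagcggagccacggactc
Dpt: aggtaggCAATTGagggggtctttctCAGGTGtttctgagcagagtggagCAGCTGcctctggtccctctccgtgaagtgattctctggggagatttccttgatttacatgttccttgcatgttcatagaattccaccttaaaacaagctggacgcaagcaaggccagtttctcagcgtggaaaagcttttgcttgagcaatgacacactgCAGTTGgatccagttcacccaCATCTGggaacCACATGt
Hmcn2: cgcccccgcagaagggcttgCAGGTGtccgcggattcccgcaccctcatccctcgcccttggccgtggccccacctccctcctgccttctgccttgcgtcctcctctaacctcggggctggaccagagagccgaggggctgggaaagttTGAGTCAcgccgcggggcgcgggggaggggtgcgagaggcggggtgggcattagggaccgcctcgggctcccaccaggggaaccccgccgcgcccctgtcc
The Dpt window held 6 E-boxes, 1 of them the palindrome CAGCTG, where 66.2% of all 32851 RefSeq windows held at least 1 E-box and 13% held CAGCTG. The Nppc window had no E-box and carried a TATA match 29 to 24 bases before the start, and 12.4% of all windows held TATAAA. The Spp1 window shown, the first of 2, held 1 E-box and a TATA match farther upstream, 211 to 206 bases before the start, and the second, with 35.6% G and C, held 2 E-boxes and no TATA match. The Hmcn2 window held 1 E-box and 1 AP-1 match (TGAGTCA) 101 to 95 bases before the start, and 6.75% of all windows held TGANTCA. Base composition also differed, with 43.6% G and C in the Spp1 window shown, 48.8% in that of Dpt, 69.2% in that of Nppc and 72.4% in that of Hmcn2. The first of the 4 Tspan9 windows held 6 GC boxes (GGGCGG, present in 32.7% of all windows), and the Fstl1 window held 2 GC boxes and no E-box. These matches describe the letters in the windows and were not tested as binding sites.

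Of the 10 genes, 3 were higher in myoblasts and 7 were lower, and for each of the 10 the 3 MuSC and the 3 myoblast libraries did not overlap. Over all 15345 tested genes, 22.2% were called higher and 20.6% lower in myoblasts (limma adjusted p of at most 0.05), and the groups did not overlap for 28.4% in the upward and 26.8% in the downward direction. Nothing is read from the 10 genes against these shares, because the genes were chosen on this contrast. Spp1 ranked first among the rises by log2 fold change, Tspan9 at rank 5 and Tmem119 at rank 8. Among the falls, Apoe and Rarres2 stood at ranks 1 and 2, Dpt at 5, Nppc at 7, Clu at 18, Fstl1 at 49 and Hmcn2 at 54. This order depends on the pseudocount of 1 RPM, and with 0.1 RPM the log2 differences of Dpt (-12.16), Rarres2 (-11.32) and Nppc (-10.95) were wider than that of Apoe (-9.79). In bulk RNA, fewer cells that express a gene and less RNA of it per cell cannot be told apart.

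**Figure D1:**
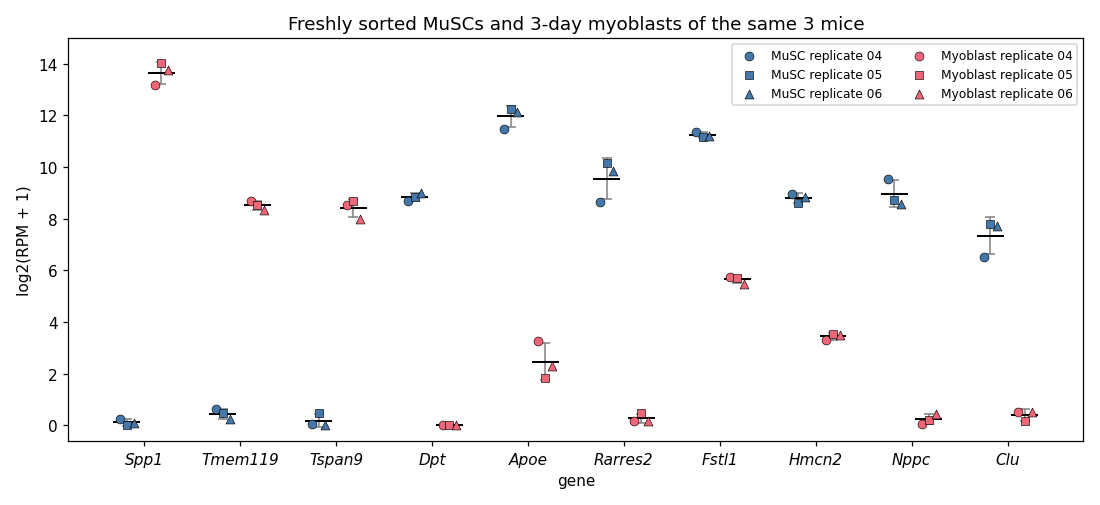
Level of the 10 genes as log2(RPM + 1) in each library of the culture comparison, with MuSCs in blue and myoblasts in red, 1 marker shape per mouse, a bar at the mean of 3 mice and an error bar of 1 SD. Spp1, Tmem119 and Tspan9 lie at the bottom in MuSCs and at 8.01 or more in myoblasts, and the other 7 genes lie the other way round. Of these 7, Apoe, Fstl1 and Hmcn2 had 10 normalized counts or more in each myoblast library.

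The membrane proteins rose together. Tmem119, a single-pass protein that marks microglia in brain and promotes bone formation in osteoblasts, had levels of 0.560, 0.384 and 0.181 RPM for MuSCs of mice 04, 05 and 06, and of 407, 366 and 323 RPM for myoblasts of the same mice. The log2 difference within a mouse was 8.03, 8.05 and 8.10 on log2(RPM + 1), a scale on which the pseudocount narrows differences between the MuSC values, which lie below 1 RPM. Tspan9, a tetraspanin that organizes receptors and integrins in membrane microdomains, was at 0.0473, 0.400 and 0 RPM in MuSCs and at 367, 411 and 256 RPM in myoblasts. Both genes were therefore close to the lower end of the scale in every MuSC library, where differences on log2(RPM + 1) understate the change.

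Among the secreted ligands, Spp1 rose and 3 fell. Spp1 encodes osteopontin, a phosphoprotein that binds integrins and CD44 and that activated myoblasts and macrophages release. It was at 0.196, 0 and 0.0739 RPM in MuSCs and at 9233, 16661 and 13665 RPM in myoblasts, with log2 differences of 12.92, 14.02 and 13.64 within the 3 mice. Every myoblast library thus held Spp1 at 9233 RPM or more, while no MuSC library reached 1 RPM.

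Nppc encodes C-type natriuretic peptide, which raises cyclic GMP through its receptor NPR2 and is best known from growth plate cartilage. It was at 751, 426 and 383 RPM in MuSCs and at 0.0372, 0.155 and 0.356 RPM in myoblasts. Mouse 04, with the highest MuSC value, had the lowest myoblast value. Rarres2 encodes chemerin, a chemoattractant and adipokine that is activated by proteases outside the cell. It was at 400.0, 1127 and 922 RPM in MuSCs and at 0.133, 0.378 and 0.124 RPM in myoblasts, and its lowest MuSC library was that of mouse 04. Fstl1 encodes a secreted glycoprotein of the SPARC family that binds BMP4 and modulates its signalling. It was at 2635, 2269 and 2368 RPM in MuSCs and at 52.8, 51.5 and 43.9 RPM in myoblasts.

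The extracellular carriers fell in all 3 mice. Apoe, the ligand through which cells take up lipoproteins, was at 2871, 4898 and 4541 RPM in MuSCs and at 8.55, 2.58 and 3.91 RPM in myoblasts. Its log2 difference was -8.23 in mouse 04, -10.42 in mouse 05 and -9.85 in mouse 06. Clu, which encodes the extracellular chaperone clusterin (apolipoprotein J), was at 90.5, 222 and 209 RPM in MuSCs and at 0.447, 0.110 and 0.441 RPM in myoblasts. Mouse 04 had the lowest MuSC value and the highest myoblast value for both genes.

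The matrix proteins fell as well, by different amounts. Dpt encodes dermatopontin, which binds decorin and fibronectin and organizes collagen fibrils. It was at 411, 461 and 507 RPM in MuSCs whereas its value was given as 0 for each of the 3 myoblast libraries, so no fold is given. Hmcn2 encodes hemicentin 2, a very large basement membrane protein of the fibulin family. It was at 500.1, 389 and 452 RPM in MuSCs and at 8.83, 10.7 and 10.3 RPM in myoblasts, with log2 differences between -5.67 and -5.06. The fall was thus smaller than that of Dpt from a like level in RPM, and no myoblast library was near 0.

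The MuSC libraries of the 3 mice differed more for some of these genes than for others. The coefficient of variation over the 3 mice was 7.82% for Fstl1, 10.4% for Dpt and 12.4% for Hmcn2, and it was 26.4% for Apoe, 38.7% for Nppc, 41.7% for Clu and 45.9% for Rarres2. Over the 10082 tested genes with at least 5 RPM in MuSCs, the median was 19.9%, with quartiles at 12.1% and 30.9%. Apoe, Rarres2 and Clu shared an order, with mouse 04 lowest and mouse 05 highest, whereas mouse 04 was highest for Fstl1, Hmcn2 and Nppc.

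Levels of different genes were compared per kilobase of exon, with the union of exons of the GENCODE M39 annotation as the length, which understates genes with long unused exons. In MuSCs of the culture table, the order of the mean RPM per kb was Apoe (1014), Nppc (495), Rarres2 (279), Fstl1 (240.3), Dpt (103), Clu (30.9) and Hmcn2 (26.9), followed by Tmem119, Spp1 and Tspan9 below 0.2. The ranges over the 3 mice overlapped between Apoe and Nppc, Nppc and Rarres2, Rarres2 and Fstl1, and Clu and Hmcn2, and did not overlap between Fstl1 and Dpt, Dpt and Clu, or Hmcn2 and Tmem119. Apoe stood at rank 25 of the 16437 genes with a known length in MuSCs, and Nppc at rank 57. In myoblasts, Spp1 had 4638 RPM per kb, rank 2 of all genes, Tmem119 had 112 at rank 317 and Tspan9 had 54.2 at rank 720, without overlap between these neighbours. Fstl1 followed with 4.90 RPM per kb and Apoe with 1.24.

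**Figure D2:**
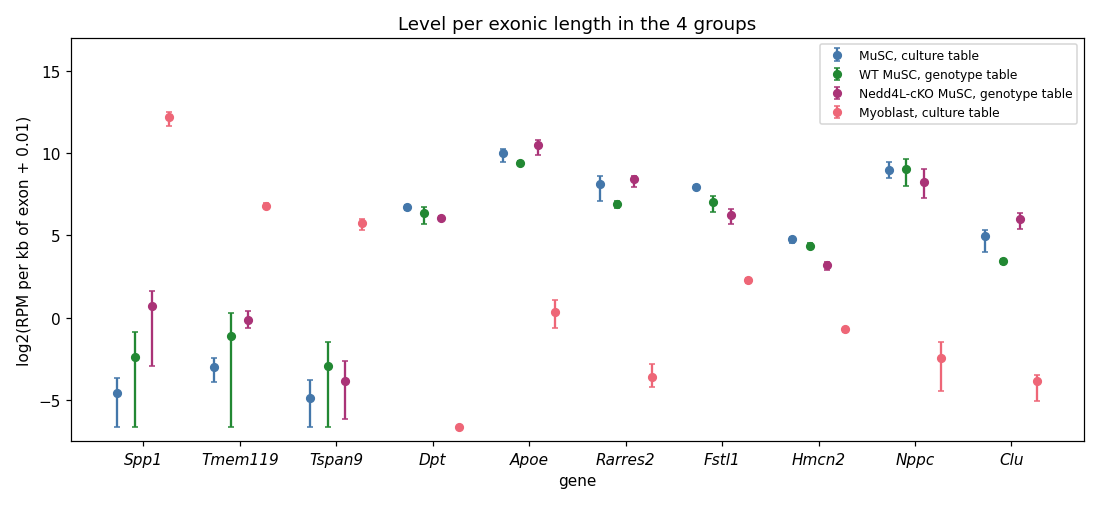
Level of each gene per exonic length as log2(RPM per kb + 0.01) in the 4 groups, with the point at the mean of 3 libraries and the bar from the lowest to the highest library. The 2 tables were normalized separately, so blue and red points belong together and green and purple points belong together, and points at the lowest position are listed at 0.

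The genes differ widely in size and place. On GRCm39, Apoe spans 4.9 kb of chromosome 7 (19430034 to 19434947, minus strand), Rarres2 3.1 kb of chromosome 6 (48546630 to 48549762, minus strand) and Clu 28.8 kb of chromosome 14 (66190200 to 66218999, plus strand). Hmcn2 spans 146.5 kb of chromosome 2 (31204263 to 31350750, plus strand), with 16641 exonic bases, and Spp1 7.1 kb of chromosome 5 (104582165 to 104589235, plus strand). Tspan9 and Rarres2 share chromosome 6, Spp1 and Tmem119 chromosome 5, and Nppc and Dpt chromosome 1. All 10 are annotated as protein-coding.

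In MuSCs of Nedd4L-cKO mice, genes of this set moved in both directions. Clu and Rarres2 were higher and Hmcn2 was lower in Nedd4L-cKO than in WT MuSCs, and Apoe was higher in every Nedd4L-cKO library without passing the test. Tspan9 reached 10 normalized counts in only 2 of the 6 libraries and was not tested, which left 9 genes. Of these, 2 were called higher, where 0.451% of all 15304 tested genes were, and 1 was called lower, where 0.203% were. A call required a limma adjusted p not above 0.05, a log2 fold change of 1 or more in either direction and a mean level of 5 RPM or more, and calls over all genes numbered 69 higher and 31 lower (49 and 38 with each library scaled to its own total). The groups did not overlap for 3 of the 9 in the upward direction, against 9.75% of all genes, and for 1 in the downward direction, against 9.59%. Since the genotype results were known when the genes were chosen, nothing is read from these counts against the shares.

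**Figure D3:**
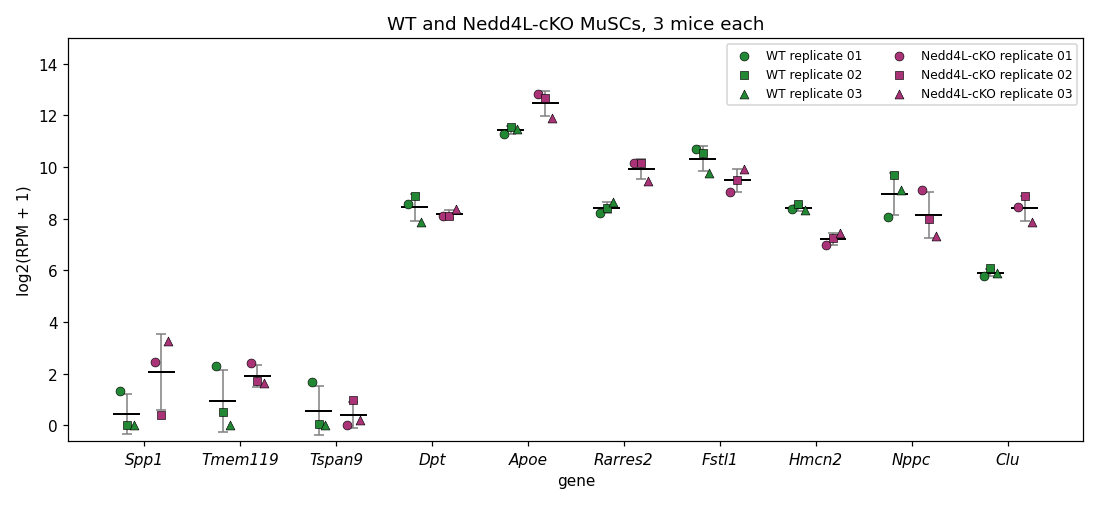
Level of the 10 genes as log2(RPM + 1) in each library of the genotype comparison, with WT in green and Nedd4L-cKO in purple, 1 marker shape per replicate number, a bar at the mean of 3 mice and an error bar of 1 SD. All Nedd4L-cKO points lie above all WT points for Apoe, Rarres2 and Clu and below them for Hmcn2, and the groups overlap for the other 6 genes.

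The Clu level was 53.8, 66.4 and 58.8 RPM for WT mice 01, 02 and 03, and 352, 464 and 236 RPM for Nedd4L-cKO mice 01, 02 and 03. The lowest Nedd4L-cKO library, at 236 RPM, thus stood well above the highest WT library, at 66.4 RPM. The log2 fold change was 2.49 ± 0.28 (SE, n = 3 mice per group, 95% interval 1.87 to 3.10, limma adjusted p = 0.00296), at rank 6 of 15304 genes by p. Clu was called in all 13 alternative fits, with adjusted p-values between 0.000221 and 0.0209 by limma.

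Rarres2 was at 295, 344 and 400.4 RPM in WT and at 1128, 1152 and 710 RPM in Nedd4L-cKO libraries. Every Nedd4L-cKO value was above every WT value. The log2 fold change was 1.5 ± 0.26 (SE, 95% interval 0.92 to 2.08, limma adjusted p = 0.0299), and 7 of 13 alternative fits called the gene. Leaving out WT 01, WT 02, Nedd4L-cKO 01 or Nedd4L-cKO 02 ended the call, with limma adjusted p-values of 0.0919, 0.105, 0.0664 and 0.145 and log2 fold changes of at least 1.38.

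Apoe was at 2476, 3001 and 2831 RPM in WT and at 7181, 6512 and 3845 RPM in Nedd4L-cKO libraries. All 3 Nedd4L-cKO libraries were higher, library 03 by the least. The log2 fold change of 1.03 ± 0.27 (SE, 95% interval 0.44 to 1.63) had a limma adjusted p of 0.114 and was not called. Without Nedd4L-cKO 03 it was 1.31 with a limma adjusted p of 0.0237, the only one of the 13 alternative fits that called Apoe, and the adjusted p-values of the 13 ran from 0.0237 to 0.310.

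Hmcn2 was at 333, 377 and 320 RPM in WT and at 124, 152 and 173 RPM in Nedd4L-cKO libraries. Every Nedd4L-cKO library lay below every WT library, and the values within a group were close together, with a coefficient of variation of 8.70% in WT and 16.5% in Nedd4L-cKO. The log2 fold change was -1.20 ± 0.24 (SE, 95% interval -1.72 to -0.68, limma adjusted p = 0.0465), and 5 of 13 alternative fits called the gene. Leaving out any library other than Nedd4L-cKO 03 ended the call, with limma adjusted p-values up to 0.195 and log2 fold changes between -1.25 and -1.07.

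**Figure D4:**
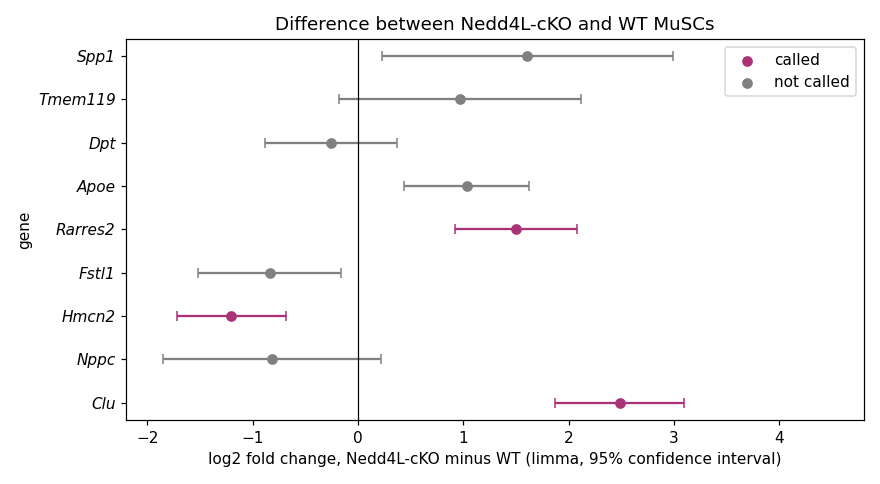
Log2 fold change of the 9 tested genes between Nedd4L-cKO and WT MuSCs (limma on log2(RPM + 1), 3 mice per group) with its 95% confidence interval, positive when higher in Nedd4L-cKO. Clu, Rarres2 and Hmcn2, in purple, were called, and the 6 genes in grey were not, Apoe, Spp1 and Fstl1 among them with intervals that do not include 0.

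The other 2 ligands that fell in culture were lower on average in Nedd4L-cKO MuSCs without being called. Fstl1 was at 1659, 1473 and 871 RPM in WT and at 527, 719.7 and 982 RPM in Nedd4L-cKO libraries, with WT 03 below Nedd4L-cKO 03. Its log2 fold change was -0.84 (95% interval -1.52 to -0.16, limma adjusted p = 0.253). Nppc was at 268, 829 and 552 RPM in WT and at 556, 252 and 160 RPM in Nedd4L-cKO libraries, a spread within each group that spans the difference of the means (log2 fold change -0.82, 95% interval -1.85 to 0.22, limma adjusted p = 0.457). Dpt was at 379, 474 and 232 RPM in WT and at 271, 273 and 328 RPM in Nedd4L-cKO libraries, and its interval of -0.88 to 0.37 includes 0 (limma adjusted p = 0.721).

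The 3 genes that rose in culture stayed low in all 6 MuSC libraries of the genotype comparison. Spp1 was at 1.53, 0 and 0 RPM in WT and at 4.51, 0.334 and 8.69 RPM in Nedd4L-cKO libraries. The groups overlapped, the log2 fold change was 1.60 (95% interval 0.22 to 2.99) and the limma adjusted p was 0.280. It ran from 0.99 to 2.43 with 1 library left out and was 3.36 with a pseudocount of 0.1, not called in any of these. Tmem119 was at 3.94, 0.451 and 0 RPM in WT and at 4.27, 2.29 and 2.09 RPM in Nedd4L-cKO libraries (limma adjusted p = 0.426). Tspan9 was at 2.21, 0.0321 and 0 RPM in WT and at 0.0242, 0.962 and 0.150 RPM in Nedd4L-cKO libraries. For all 3 genes WT 01 was the highest WT library, and no library of either genotype came near the levels in myoblasts, although the tables were normalized separately.

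Within the Nedd4L-cKO group, library 03 had the lowest level of Apoe, Rarres2, Clu and Nppc and the highest level of Fstl1, Hmcn2 and Dpt. Of the genes that were lower in cultured myoblasts, Clu and Rarres2 were called higher in Nedd4L-cKO MuSCs and Hmcn2 was called lower.

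Markers of other cell types that a muscle sort could hold were read beside these results. The summed level of 6 markers of pericytes and smooth muscle was 1147 to 1901 RPM in WT and 2158 to 3197 RPM in Nedd4L-cKO libraries. Of the 6, 5 had an unadjusted limma p under 0.05 without being called, where 2240 of all 15304 tested genes had such a p. Most of this sum came from Rgs5 and Acta2, and Pdgfrb was at 9.36 to 31.3 RPM in WT and 21.9 to 53.9 RPM in Nedd4L-cKO. Rgs5 had means of 628 RPM in WT and 1190 RPM in Nedd4L-cKO, Kcnj8 of 67.2 and 123 RPM, and Acta2 of 721 and 1240 RPM. MuSCs of the culture comparison, normalized separately, had means of 9.82 RPM for Rgs5, 3.16 RPM for Kcnj8 and 0.497 RPM for Pdgfrb. Acta2 went the other way, with a mean of 1267 RPM in those MuSCs. The summed level of 8 myofibre markers was 249 to 483 RPM in WT and 528 to 626 RPM in Nedd4L-cKO, with 5 of the 8 at an unadjusted limma p under 0.05. These sums moved in the same direction as Clu, Rarres2 and Apoe, and their part in the result was not tested. Between genotypes, the 12 MuSC markers summed to 6142 to 10215.5 RPM in WT and 5252 to 8712 RPM in Nedd4L-cKO. Of these, only Cd34 was called (lower, means of 286 and 93.3 RPM, limma adjusted p = 0.0293). The 10 myoblast markers summed to 371 to 1277 RPM in WT and 722 to 1265 RPM in Nedd4L-cKO. Of these, only Ccnb1 was called (higher, means of 17.9 and 75.4 RPM, limma adjusted p = 0.0325). Over all genes, 0.203% were called lower and 0.451% higher.

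Macrophage markers were low in most libraries. Of 14 such genes, 6 were listed in the genotype table, with summed levels of 2.24 to 39.2 RPM in WT and 2.68 to 10.2 RPM in Nedd4L-cKO, and 7 in the culture table, with 2.84 to 7.40 RPM in MuSCs and 4.33 to 5.46 RPM in myoblasts. The WT median was 3.32 RPM, so a single WT library made the upper end of that range. Lyz2 had a mean of 11.2 RPM in WT and 3.57 RPM in Nedd4L-cKO. Adgre1, C1qa, C1qb, C1qc, Tyrobp and Aif1 are not listed in either table. Markers of fibro-adipogenic progenitors, a mesenchymal cell of muscle that also makes Dpt, summed to 2145 to 3676 RPM in WT and 1976 to 4019 RPM in Nedd4L-cKO, and to 2694 to 3203 RPM in MuSCs and 389 to 466 RPM in myoblasts. Col3a1, Gsn and, in the genotype table, Dcn made up most of these sums. In culture, 4 of the 9 tested markers of these cells were lower and 3 were higher by limma, among the latter Dpep1, at a mean of 2.81 RPM in MuSCs and 102 RPM in myoblasts. Pdgfra, their defining receptor gene, did not exceed 2.83 RPM in any of the 12 libraries, while other markers of the list were higher. Between genotypes, Dcn had means of 840 RPM in WT and 1030 RPM in Nedd4L-cKO, Lum of 24.6 and 32.0 RPM, and Mfap5 of 18.5 and 41.3 RPM. MuSCs of the culture table had means of 23.9 RPM for Dcn, 1.05 RPM for Lum and 0.466 RPM for Mfap5. Endothelial markers summed to 43.6 to 46.0 RPM in MuSCs and to 11.4 to 21.2 RPM in myoblasts, with Cdh5 at or below 0.356 RPM. Of these markers, Tek had means of 29.8 and 0.411 RPM and was called lower, while Pecam1 (12.9 and 9.73 RPM) and Egfl7 (1.73 and 4.41 RPM) were not called. In the genotype table, endothelial markers summed to 57.7 to 104 RPM in WT and 39.8 to 72.6 RPM in Nedd4L-cKO, and glial markers to 18.6 to 54.1 RPM and 5.89 to 26.9 RPM. Tenocyte markers summed to 181 to 1521 RPM in WT and 328 to 1122 RPM in Nedd4L-cKO. In the culture table, where the tenocyte markers Tnmd and Fmod are not listed, they summed to 10.9 to 11.8 RPM in MuSCs and 23.4 to 107 RPM in myoblasts. The part of these cells in the culture and genotype values was not tested.

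Receptors, relatives and processing enzymes of the 10 proteins were examined as 9 lists with 97 genes tested in culture. In myoblasts, 26 of them (26.8%) were higher and 35 (36.1%) were lower by limma, where 22.2% and 20.6% of all genes were. Between genotypes, 1 of 96 tested was higher (1.04%, against 0.451% of all genes) and none was lower by limma. An unadjusted limma p under 0.05 was found for 16 of the 96, where 2240 of all 15304 tested genes had one. The single call was Apoc1, and it is described with Apoe.

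**Figure D5:**
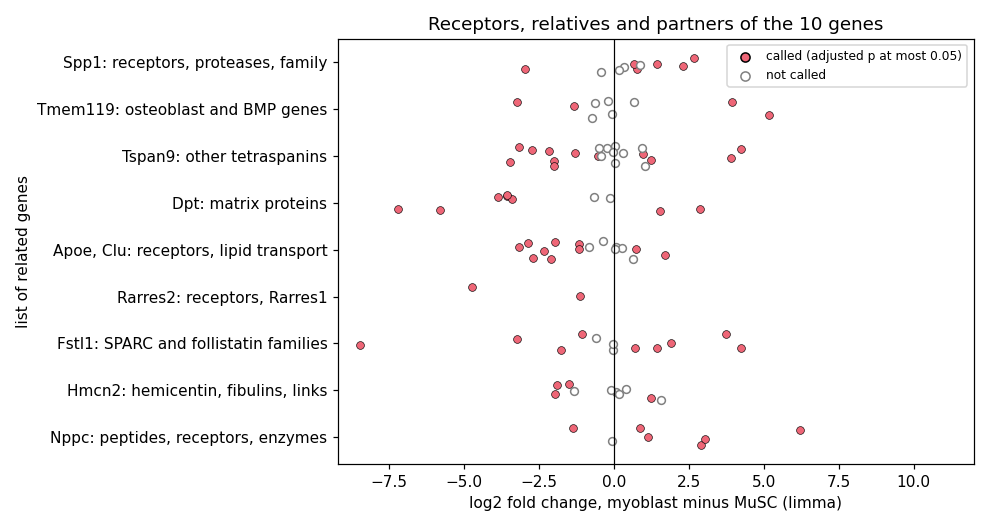
Log2 fold change between myoblasts and MuSCs (limma on log2(RPM + 1), 3 mice) of the 97 tested genes of 9 lists, 1 row per list and 1 point per gene, positive when higher in myoblasts. Filled points passed an adjusted p of 0.05, and the matrix proteins of the Dpt list and the enzymes of the Nppc list fall mostly on opposite sides of 0.

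Among integrins and other partners of osteopontin, 5 of 10 tested genes were higher in myoblasts, 1 was lower and 4 were not called. Shares over all genes were 22.2% higher and 20.6% lower. The median log2 fold change was 0.72 beside 0.04 over all genes. Itga5, an RGD-binding integrin chain and fibronectin receptor, rose from 14.4, 11.7 and 5.23 RPM to 51.3, 74.9 and 79.5 RPM (log2 fold change 2.68, limma adjusted p = 0.000552). Itga4, an integrin chain that also binds osteopontin, rose from a mean of 2.31 to 19.0 RPM (limma adjusted p = 0.0143). Itga8, whose protein binds nephronectin and osteopontin, fell from 20.9 ± 4.82 to 2.43 ± 2.83 RPM (SD, n = 3, limma adjusted p = 0.0024). The receptor side of Spp1 therefore changed in both directions, with 5 rises and 1 fall.

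In the list drawn up around Tmem119, which holds osteoblast factors and BMP pathway genes, 2 of 9 tested genes were higher, 2 were lower and 5 were not called. These counts are close to the shares over all genes, 22.2% higher and 20.6% lower. Runx2, the master transcription factor of osteoblasts, rose from 0.119, 0.502 and 0.0252 RPM to 37.8, 52.6 and 38.4 RPM (log2 fold change 5.18, limma adjusted p = 8.09e-06). Sp7, which acts after Runx2 in osteoblasts, is listed at 0 in the 3 MuSC libraries and was at 7.57, 28.4 and 13.5 RPM in myoblasts (limma adjusted p = 0.000191). Alpl, the bone-type alkaline phosphatase, moved the other way, from 11.95 ± 3.09 to 0.375 ± 0.287 RPM (SD, n = 3, limma adjusted p = 0.000119), and Bmp2 fell from a mean of 2.39 to 0.275 RPM (limma adjusted p = 0.00871). The gene of the mature osteoblast product osteocalcin, Bglap, is not listed in either table.

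Of 21 other tetraspanins tested, 4 were higher in myoblasts, 8 were lower and 9 were not called, with a median log2 fold change of -0.21. Shares over all genes were 22.2% higher and 20.6% lower. Tspan13 rose from 0.0883, 0.928 and 0.968 RPM to 25.2, 24.3 and 40.8 RPM (limma adjusted p = 4.94e-05). Tspan33, a member of the group that escorts the protease ADAM10, rose from a mean of 1.45 to 37.3 RPM (limma adjusted p = 4.98e-05). Tspan15, another escort of ADAM10, fell from 226 ± 71.1 to 18.7 ± 2.50 RPM (SD, n = 3, limma adjusted p = 2.54e-05), and Tspan7 fell from 231 ± 24.7 to 26.5 ± 11.2 RPM (limma adjusted p = 5.71e-05).

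In the natriuretic peptide list, 5 of 7 tested genes were higher in myoblasts, 1 was lower and 1 was not called, beside 22.2% higher and 20.6% lower over all genes, with a median log2 fold change of 1.13. Prkg2, a cyclic GMP-dependent protein kinase that acts after C-type natriuretic peptide in cartilage, rose from 0.139, 0 and 0.0420 RPM to 80.5, 84.0 and 66.7 RPM (log2 fold change 6.20, limma adjusted p = 1.78e-06). Prkg1, the related kinase of smooth muscle, rose from a mean of 0.224 to 10.4 RPM (limma adjusted p = 0.0016). Npr2, the receptor for the peptide, fell from 45.9, 39.2 and 22.4 RPM to 9.42, 14.7 and 14.7 RPM (log2 fold change -1.37, limma adjusted p = 0.0106). Ligand and receptor were thus both lower in myoblasts, and both kinases were higher.

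Both tested genes of the chemerin list fell with Rarres2, where 20.6% of all genes were lower. Ccrl2, a surface receptor that binds and presents chemerin without signalling, was at 37.3, 31.5 and 19.7 RPM in MuSCs and at 0.0325, 0.0194 and 0.312 RPM in myoblasts (log2 fold change -4.73, limma adjusted p = 1.84e-05). Gpr1, a chemerin receptor, went from a mean of 1.99 to 0.217 RPM (limma adjusted p = 0.0474, and 0.0601 with the mouse as a replicate block). Between genotypes Ccrl2 was at a mean of 48.6 RPM in WT and 49.1 RPM in Nedd4L-cKO (limma adjusted p = 0.973). Cmklr1, the main signalling receptor, is not listed in the culture table and stayed below 1 RPM in all libraries of the genotype table.

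The family and ligands around Fstl1 split, with 5 of 12 tested genes higher in myoblasts, 4 lower and 3 not called, beside 22.2% higher and 20.6% lower over all genes. Bmp4, which Fstl1 can bind, fell from 581, 536 and 357 RPM to 0.219, 0.131 and 0.847 RPM (log2 fold change -8.46, limma adjusted p = 7.18e-07). Sparcl1, a matricellular relative of SPARC, fell from a mean of 13.7 to 0.0629 RPM (limma adjusted p = 0.00789). Fst, the activin antagonist follistatin, rose from 0.360 ± 0.342 to 33.1 ± 23.5 RPM (SD, n = 3, limma adjusted p = 0.00127), and Smoc2, another SPARC relative, rose from 0.00752 to 13.6 RPM (limma adjusted p = 0.000145). Smoc2 also belongs to the markers of fibro-adipogenic progenitors above.

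Of 16 tested receptors and lipid transport genes listed for Apoe and Clu, 8 were lower in myoblasts, 2 were higher and 6 were not called, with a median log2 fold change of -0.99. Shares over all genes were 20.6% lower and 22.2% higher. Apod, a lipocalin that carries small lipids, fell from 7.87, 10.3 and 13.6 RPM to 0.391, 0.220 and 0.231 RPM (limma adjusted p = 9.70e-05). Sorl1, a sorting receptor that binds Apoe, fell from 28.8 ± 0.784 to 3.72 ± 3.24 RPM (SD, n = 3, limma adjusted p = 0.0012). Scarb1, the HDL receptor, rose from a mean of 7.91 to 27.6 RPM (limma adjusted p = 0.0193), and Lrp1, an endocytic receptor for Apoe, rose from 51.8 to 88.6 RPM (limma adjusted p = 0.0215).

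Apoc1, an apolipoprotein whose gene lies 2.71 kb from Apoe on chromosome 7 (19422540 to 19427328, minus strand, GRCm39), was at 1.46, 2.66 and 0.882 RPM in WT and at 10.9, 7.09 and 7.87 RPM in Nedd4L-cKO libraries. Every Nedd4L-cKO library was above every WT library (log2 fold change 1.88, limma adjusted p = 0.0467), and 2 of 13 alternative fits kept an adjusted p of at most 0.05, within a range of 0.0184 to 0.137. Leaving out any single library ended the call. With means of 1.67 RPM in WT and 8.61 RPM in Nedd4L-cKO, Apoc1 was only just above the mean of 5 RPM that a call required. In culture it followed Apoe at a far lower level, from 0.864, 1.42 and 1.45 RPM in MuSCs to a listed value of 0 in all myoblast libraries.

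The matrix genes listed for Dpt fell with it in most cases, with 6 of 10 tested lower in myoblasts, 2 higher and 2 not called, and a median log2 fold change of -3.48. Among the genes called lower, Dcn, Col1a1 and Col3a1 also belong to the markers of fibro-adipogenic progenitors above. Shares over all genes were 20.6% lower and 22.2% higher. Prelp, a leucine-rich proteoglycan of basement membranes, fell from 142, 267 and 172 RPM to 0.547, 0.159 and 0.124 RPM (log2 fold change -7.22, limma adjusted p = 1.59e-06). Col1a1, the main chain of type I collagen, fell from 80.6 ± 38.3 to 0.320 ± 0.0895 RPM (SD, n = 3, limma adjusted p = 1.77e-05). Fn1, fibronectin, rose from 12.3, 12.4 and 15.6 RPM to 91.8, 119.9 and 99.2 RPM (log2 fold change 2.86, limma adjusted p = 2.55e-05), and Tgfb1, whose product dermatopontin binds, rose from a mean of 0.961 to 4.76 RPM (limma adjusted p = 0.00615). The proteoglycan genes Bgn, at a mean of 224 RPM in MuSCs and 198 RPM in myoblasts, and Ogn, at 122 and 87.8 RPM, were the 2 not called.

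Relatives and basement membrane partners of Hmcn2 included 3 of 10 tested genes that were lower in myoblasts, 1 that was higher and 6 not called, beside 20.6% lower and 22.2% higher over all genes, with a median log2 fold change of -0.02. Fbln7 fell from a mean of 7.31 to 1.25 RPM (limma adjusted p = 0.00883) and Fbln2 from 8.56 to 1.58 RPM (limma adjusted p = 0.00176), both of the fibulin family. Nid2, nidogen 2, which links laminin to collagen IV, rose from 47.7, 33.8 and 24.0 RPM to 76.2, 82.2 and 84.0 RPM (limma adjusted p = 0.00568).

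For each gene, the 3 most similar profiles were sought by Pearson's r of log2(RPM + 1) over the 12 libraries, among the 14343 genes tested in both tables. These points share the split between 9 MuSC and 3 myoblast libraries, so r is given as a description. Apoe was followed most closely by Olfml3 (r = 0.997), Prelp (0.996) and Nmi (0.995), Rarres2 by Gstt1 (0.995), Fos (0.994) and Apoe (0.994), and Clu by Psmb9 (0.994), Ifi27 (0.988) and Rerg (0.987). Hmcn2 was nearest to Heyl (0.997), Hunk (0.994) and Nr4a1 (0.992), and Fstl1 to Hunk (0.991), Hmcn2 (0.991) and Nr4a1 (0.990). Dpt was nearest to Edn3 (0.995), Msc (0.994) and Entpd2 (0.994), and Nppc to Lrig1 (0.992), Ube2l6 (0.992) and Erfe (0.990). Spp1 lay closest to Sgpl1 (0.992), Fam241b (0.989) and Lmod3 (0.988), and Tmem119 to Sgpl1 (0.988), Spp1 (0.987) and Sct (0.986), while Tspan9 was not among the genes tested in both tables.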

How the data were processed

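MuSCs of 3 WT mice, myoblasts grown from them, and MuSCs of 3 WT and 3 Nedd4L-cKO mice were profiled, 12 libraries in all. The authors quantified single-end reads with Kallisto 0.46.1 on GENCODE M28 basic, summed transcripts to genes with tximport and normalized them with DESeq2. The deposited values are a signal, counts that the authors divided by normalization factors, in a separate table per comparison. Of the low values of a library, 48.7% to 65.7% were whole multiples of a single step (values up to 20 normalized counts, tolerance 0.05), so reads were not recovered, depth is unknown and no counting interval is given. Columns with the authors' own fold changes and p-values were not used.

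Normalized counts were divided by the mean of the 6 library totals of their table to give RPM. A gene entered the test when 3 or more libraries held 10 or more normalized counts, and testing was done with limma 3.58.1 in R 4.3.3 (trend and robust) on log2(RPM + 1), with a single term for the group and p-values adjusted by Benjamini-Hochberg across every tested gene. The fit was tested on simulated data. For genes near 0 the pseudocount makes fold changes too small. Positions and exon lengths came from GENCODE M39 (GRCm39), and promoter sequences and starts from RefSeq (GRCm38.p6). Lengths were known for 16437 and 16104 of the listed genes. Tables and plots were made in Python 3.11.15 with matplotlib 3.10.9.

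The 10 genes and all lists were chosen with earlier results of these data known. Named from each list were genes called between genotypes, and the 2 widest rises and 2 widest falls among those called in culture without overlap of the groups. The alternatives were another pseudocount, 2 other filters, RLE factors, own library totals, plain moderation, a replicate block and each library left out. MuSC and myoblast libraries of a number come from the same mouse per the labels, although their deviations from the group means had correlations of only -0.03 to 0.02. Same-numbered WT and Nedd4L-cKO libraries are different mice. The labels give no batch or date.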

Additional observations from a re-analysis of the deposited data

How the results depend on the processing

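Between genotypes, 100 genes and 3 of the 9 tested genes of the set were called. When all 6 libraries had to hold 10 normalized counts, 195 genes were called, without trend and robust moderation 41 genes and 1 of the set, and with the replicate number as a block (replicate block) 62 genes and 1 of the set. Same-numbered mice of the 2 genotypes share only a number, with correlations of deviations of 0.02, -0.02 and -0.18, and the cause of the loss was not tested. With 1 library left out, 17 to 148 genes and 1 to 4 of the set were called, 17 without Nedd4L-cKO 02, 32 without WT 02, 49 without Nedd4L-cKO 01 and 62 without WT 01. Clu was called in all of these fits. Hmcn2 also lost its call without the filter on low values (limma adjusted p = 0.0542), and Rarres2 and Hmcn2 without trend and robust moderation (0.069 and 0.0853 by limma) and with the block (0.0663 and 0.107 by limma). Of the uncalled genes, the log2 fold change with 1 library left out ran from 0.49 to 1.64 for Tmem119, from -1.30 to -0.41 for Nppc, from -1.12 to -0.61 for Fstl1 and from -0.55 to -0.03 for Dpt. No fold change of the set changed sign in any alternative. The 2 other filters, plain moderation and the replicate block leave a fold change as it is, so they could not change a sign.

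In culture, 6566 genes were called, and 4598 to 6398 with 1 library left out. The replicate block, which is the mouse here, gave 6078, of which 5883 were shared, and among the named partner genes it ended only the call of Gpr1. A pseudocount of 0.1 changed the log2 fold changes of the genes near 0, to 16.18 for Spp1 and -12.16 for Dpt, and using the own total of each library moved the median of all genes from 0.04 to 0.14. Of the partner genes, 61 were called, and 34 when all 6 libraries had to hold 10 normalized counts, a filter that removes genes at 0 in a group. Since the read depth is unknown, no limit of detection can be given for values near 0.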

Other observations

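WT MuSCs were profiled in both tables, from different mice and with separate normalization, and the level of several genes differed between these WT groups. Clu was at 90.5 to 222 RPM in the WT MuSCs of the culture table and at 53.8 to 66.4 RPM in those of the genotype table, and Rarres2 at 400.0 to 1127 RPM and 295 to 400.4 RPM. Fstl1 was at 2269 to 2635 RPM and 871 to 1659 RPM. Nedd4L-cKO MuSCs had 710 to 1152 RPM of Rarres2, a range that overlaps the WT MuSCs of the culture table, and 236 to 464 RPM of Clu, which lies above them. No test was made across the tables.

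Outside the rule for named genes, and chosen after its values were seen, Tspan7 was at 176, 224 and 177 RPM in WT and at 51.8, 85.1 and 105 RPM in Nedd4L-cKO MuSCs. The groups did not overlap, and the log2 fold change of -1.30 had a limma adjusted p of 0.065. Tspan7 also fell in culture, from 231 to 26.5 RPM. Tspan13, which rose in culture, was at 1.11 to 2.23 RPM in WT and at 4.08 to 4.98 RPM in Nedd4L-cKO MuSCs (limma adjusted p = 0.172).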
